A study of Homo sapiens with 6 samples.

Results

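The genes described here encode chromatin modifiers and remodellers, taken by the spelling of their symbols. The set holds start sites of the density tables whose gene symbol begins with KDM, KMT, KAT, SETD, SMARC, HDAC, SIRT, CHD, BRD, ARID, ING, CBX, EZH, SUZ, PHF, PRMT, DNMT, TET, ASXL, BAZ or INO80, followed by a digit where the family is numbered. Of the 3000 transcription start sites (TSSs) in these tables, 23 matched, each from a different gene. The symbols were matched without a measured value, but the name families were chosen with earlier results of these data known. The authors' wider list of 9944 TSSs holds 31 matches. The 8 that are not in the density tables had BrU-seq levels of at most 0.580 or no BrU-seq value, below the lowest level in the density tables (0.693). The BrU-seq levels of the 23 ran from 1.01 to 31.1.

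Anti-TY ChIP-seq had been done in RPE1, a human line of immortalised cells from the retinal pigment epithelium, in a derivative with inducible Cas9 in which the p53 gene and the puromycin resistance gene are both knocked out. The 6 untreated samples formed 2 groups of 3. The WT group has no TY-tagged protein, and its density is the antibody background. The other cells lacked CFAP20 (CFAP20-KO) and expressed TY-CFAP20, an epitope-tagged form of this cilium-associated protein, whose nuclear role the study examines. The labels do not say which promoter drives TY-CFAP20 or whether the cells are a single clone, and the level of CFAP20 itself is not analysed here. Of retinal pigment epithelium markers, OTX2 and MITF had BrU-seq levels of 10.05 and 1.40, RLBP1 had 0.235, and RPE65 was listed without a value. The deposited densities are averages over the replicates of each group. They give 1 value per group and position, so differences below are between 2 averages and carry neither a replicate error nor a test.

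Chromatin is controlled by enzymes that write and erase marks on histones and DNA, by proteins whose domains read those marks, and by ATP-driven machines that move nucleosomes. Lysine and arginine methyltransferases and acetyltransferases write, and demethylases and deacetylases erase. PHD fingers, bromodomains and chromodomains read. Most of these genes are broadly expressed and start in CpG islands, stretches of DNA rich in CpG dinucleotides at which RNA polymerase II initiates and often pauses.

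The promoters of the members with the largest and smallest differences are shown first, because the density measured here lies over or partly over them. RefSeq promoter windows (GRCh38.p14) were available for 18 of the 23 members, and in 17 the RefSeq start lay within 1000 bp of the listed TSS. The 250 bases before that start are given 5′ to 3′ on the gene's strand. Capitals mark any match, on either strand, to GGGCGG (the GC box), to CCAAT (the CCAAT box), to TATAAA (the TATA box), to CCGGAAG (an ETS core), to the NRF1 palindrome, to AAGATGGCG (YY1), to TGACGTCA (CRE) or to TGAGTCA (AP-1), and capitals that run together are overlapping or adjoining matches. SIRT1, KDM2A and ASXL1 had the 3 largest differences among the members with a window, and KDM3A and DNMT1 the 2 smallest. These are differences at the listed TSSs, after scaling to the regional ratio of TY-CFAP20 to WT (local scaling, described below). That scaling does not remove a regional level that is high in both groups. The RefSeq start lies 424 bp upstream of the listed TSS at KDM2A and 570 bp downstream at KDM3A. Their windows therefore lie only partly within 500 bp of the listed TSS.
SIRT1: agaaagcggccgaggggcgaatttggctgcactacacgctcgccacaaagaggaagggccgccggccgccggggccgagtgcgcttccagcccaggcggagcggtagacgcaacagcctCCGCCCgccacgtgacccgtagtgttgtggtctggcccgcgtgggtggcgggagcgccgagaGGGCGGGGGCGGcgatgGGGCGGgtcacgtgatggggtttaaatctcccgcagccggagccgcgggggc
KDM2A: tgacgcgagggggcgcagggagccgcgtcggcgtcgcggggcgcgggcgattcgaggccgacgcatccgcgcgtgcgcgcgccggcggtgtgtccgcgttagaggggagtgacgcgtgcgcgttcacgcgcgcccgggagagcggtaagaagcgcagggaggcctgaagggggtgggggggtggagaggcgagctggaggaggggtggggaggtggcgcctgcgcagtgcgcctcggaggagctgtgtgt
ASXL1: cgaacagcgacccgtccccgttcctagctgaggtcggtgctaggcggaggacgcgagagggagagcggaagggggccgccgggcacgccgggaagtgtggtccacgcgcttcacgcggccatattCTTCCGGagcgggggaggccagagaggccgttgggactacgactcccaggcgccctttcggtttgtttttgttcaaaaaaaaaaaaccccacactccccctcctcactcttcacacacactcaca
KDM3A: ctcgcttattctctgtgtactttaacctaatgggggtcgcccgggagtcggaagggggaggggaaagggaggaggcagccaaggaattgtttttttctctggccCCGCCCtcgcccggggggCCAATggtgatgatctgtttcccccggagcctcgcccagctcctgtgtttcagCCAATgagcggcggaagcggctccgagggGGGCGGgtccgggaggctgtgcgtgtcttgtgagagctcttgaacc
DNMT1: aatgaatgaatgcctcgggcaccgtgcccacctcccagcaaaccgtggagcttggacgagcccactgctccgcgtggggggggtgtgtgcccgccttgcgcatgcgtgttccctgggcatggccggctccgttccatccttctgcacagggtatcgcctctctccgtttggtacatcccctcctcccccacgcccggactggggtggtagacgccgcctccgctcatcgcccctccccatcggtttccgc
These windows lie at chr10:67884406-67884655, chr11:67119013-67119262, chr20:32358094-32358343 and chr2:86441121-86441370 on the plus strand and at chr19:10194954-10195203 on the minus strand. They hold 32, 40, 23, 16 and 21 CpG dinucleotides in the order shown. Over the 17 members the median was 25, against 21 in the 1935 windows that match a TSS of the density tables in the same way and 11 in all 35116 windows of that table.

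Of the 17 members with a window, 12 held GGGCGG (70.6%), against 67.5% of the 1935 windows of measured TSSs and 42.6% of all windows. CCAAT was found in 8 (47.1%, against 37.0% and 32.0%) and CCGGAAG in 2, ASXL1 and ING4 (11.8%, against 17.1% and 8.52%). The NRF1 palindrome was found in ING1 (1.65% and 1.03% of the respective windows), AAGATGGCG in PHF19 (0.672% and 0.652%) and TGAGTCA in SMARCB1 (3.05% and 4.20%). TATAAA and TGACGTCA were found in none of the 17, and in 6.10% and 3.46% of the windows of measured TSSs and 10.7% and 1.65% of all. The KDM2A and DNMT1 windows hold none of these letters on either strand, and that of SIRT1 holds the GC box on both.

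Over the 23 start sites, density within 500 bp of the TSS was higher in TY-CFAP20 than in the untagged cells at 22. The exception was ING3. Across all 3000 TSSs 91.2% were higher, so this count is near the background. Mean spike-in normalised density, the unit of every density below, was 1.63 in TY-CFAP20 and 0.864 in WT, or 1.88 times WT, against 1.36 and 0.794, or 1.71 times, at the 2977 other TSSs. In the flanks, which are the last 1 kb at either end, the ratio was 1.17 at the members and 1.14 at the others. Subtracting WT from TY-CFAP20 gave a median of 0.749 at the members and 0.569 at the others. Their 25th and 75th percentiles were 0.530 and 1.11 for the members and 0.267 and 0.844 for the others, so the ranges overlapped widely. After adding 0.668 to both groups, a pseudocount equal to the median flank density of WT, 11 of 23 members were at least 1.5-fold above WT (background 34.9% of all TSSs) and 1 was at least 2-fold higher (background 1.77%). Without a pseudocount 10 members were at least 2-fold higher, against 30.8% of 2984 TSSs, those at which WT reached 0.2. With each window moved to the reference start described below (MANE Select), 22 of 23 were higher, against 91.3% of all TSSs.

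**Figure D1:**
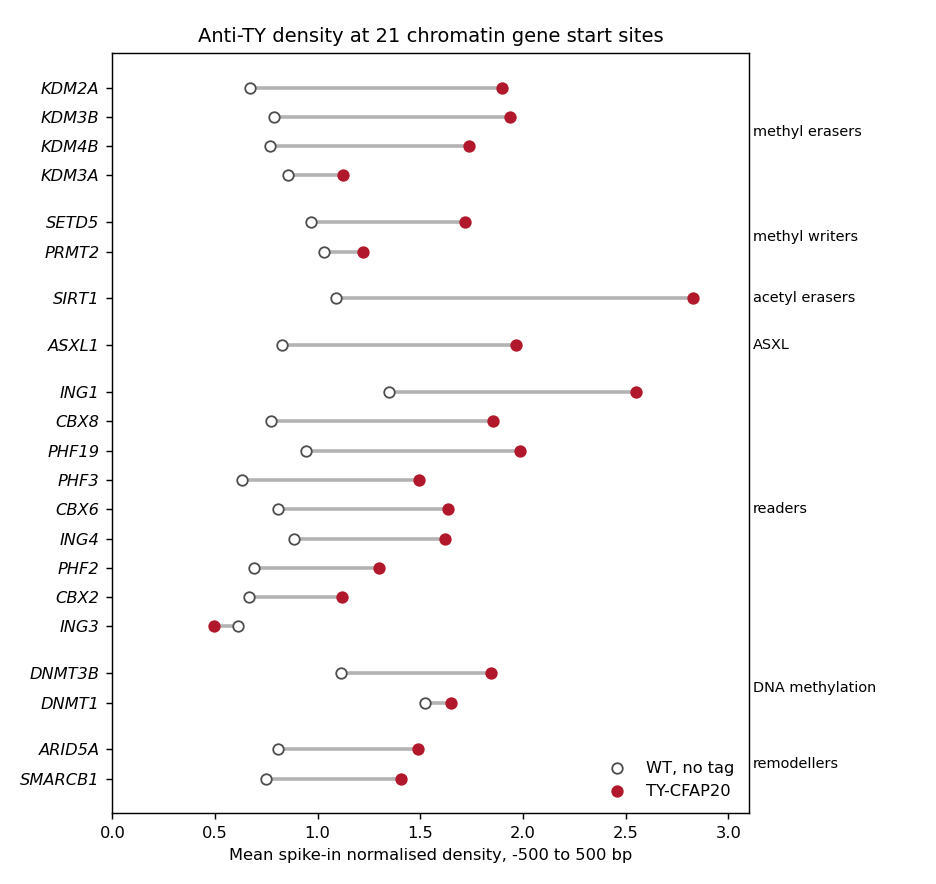
Mean spike-in normalised density from -500 to 500 bp (x axis) at 21 of the 23 start sites, grouped by role, with WT as open and TY-CFAP20 as filled circles; each circle is the authors' average of a group, without error. SIRT1 reached 2.83 in TY-CFAP20, and ING3 is the member whose TY-CFAP20 circle lies left of WT.

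The mean profile over the members had its largest difference 70 bp downstream of the TSS (running mean over 110 bp), where it reached 0.944, with 0.129 at the edges of the window. At the other TSSs the summit was 0.779 at -10 bp, with 0.0991 at the edges. The span above the midpoint between edge and summit ran from -440 to 680 bp for the members and from -300 to 480 bp for the others. A mean over 23 profiles is far more uneven than one over 2977, and a shift of this size was not tested. From 500 to 1000 bp downstream the median difference was 0.554 at the members and 0.305 at the others, and over the same distance upstream 0.277 and 0.161. At 15 of the 23 members the downstream value was the larger, or 65.2%, against 61.4% of the others.

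**Figure D2:**
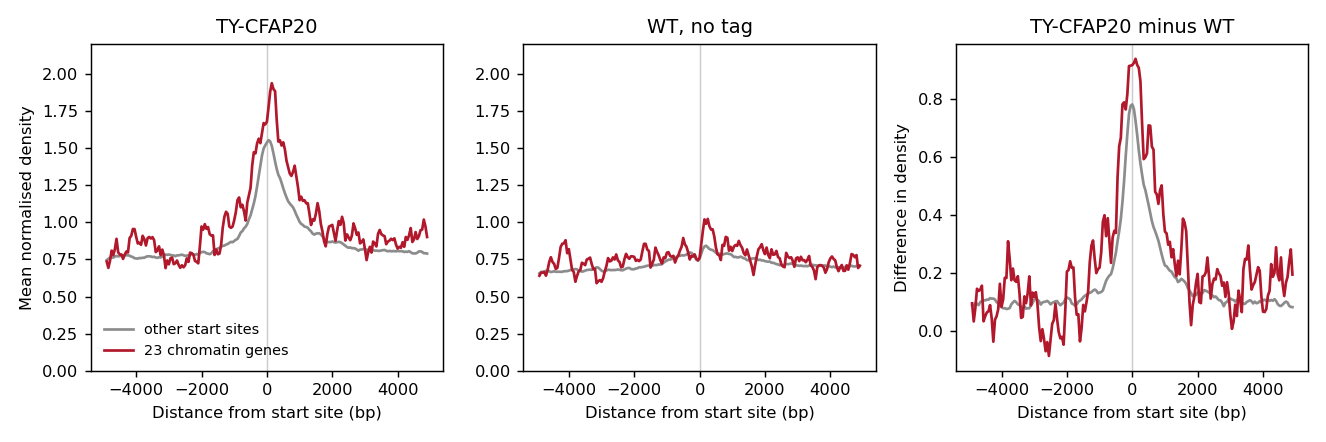
Mean normalised density in TY-CFAP20 (left) and WT (centre) and their difference (right) from -4900 to 4900 bp around the start site, for the 23 chromatin genes (red) and the 2977 other start sites (grey). The red difference curve peaks at 0.944 and the grey one at 0.779, and the red curves, which average 23 sites, are more uneven.

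At single genes few fragments lie over each position. Each deposited value is a sum of steps, most often 0.0233, 0.0417 and 0.0967 in WT and 0.0425, 0.0667 and 0.100 in TY-CFAP20, so a density divided by the extreme steps gives limits for the number of fragments over a position. At SIRT1 the mean density within 500 bp gives 28.3 to 66.5 fragments per position in TY-CFAP20 and 11.3 to 46.8 in WT. At ING3 it gives 4.96 to 11.7 and 6.31 to 26.2. Peaks and dips within single profiles were not tested against this counting noise.

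Of the 4 KDM demethylase genes, 3 had differences above the members' median of 0.749 and KDM3A was below it. KDM2A, which encodes a lysine demethylase that binds unmethylated CpG through a zinc finger, had a density of 1.90 in TY-CFAP20 and 0.671 in WT (difference 1.23, rank 147 of 3000 TSSs). KDM3B stood at 1.94 and 0.787 (1.15) and KDM4B at 1.74 and 0.770 (0.967). These 3 were at least 1.5-fold higher with the pseudocount. KDM3A, a relative of KDM3B that acts on the same histone lysine, stood at 1.13 and 0.858 (0.268). The median difference of the 4 genes was 1.06. The 3 high genes lie on chromosomes 11, 5 and 19 and are long, at 138, 84.4 and 184 kb. KDM3A spans 51.9 kb, and the median over the other TSSs was 18.2 kb. All 4 KDM genes were among the 600 longest.

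The listed KDM3A start differs from the reference start of the gene. It lies on chromosome 2 at 86440801 (hg38, plus strand), 570 bp upstream of the MANE Select start, the transcript that RefSeq and Ensembl share as representative. GC content within 500 bp of the listed site was 48.2%, against a median of 67.6% over the members. TY-CFAP20 exceeded WT most at 730 bp, in the interval after the MANE start, and by 0.937 on average from 500 to 1000 bp. With the window centred on the MANE start, a choice made after the data were seen, KDM3A stood at 1.43 and 0.663, a difference of 0.764. At KDM2A the offset has the opposite sign. The listed TSS (chromosome 11, 67119687) lies 424 bp downstream of the MANE start, and TY-CFAP20 was highest at -570 bp (2.98) with the largest difference at -330 bp. The window at the MANE start gave 1.24 for KDM2A, close to the 1.23 at the listed TSS.

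The histone methyltransferase group held SETD5 and PRMT2, both below 1.5-fold with the pseudocount, although SETD5 was at 1.77 times WT without it. SETD5, a SET domain gene whose catalytic activity is debated, stood at 1.72 with TY-CFAP20 against 0.967 in WT (0.749). PRMT2, an arginine methyltransferase gene, stood at 1.22 and 1.03 (0.190). The SETD5 TSS lies within the antisense RNA gene THUMPD3-AS1, which has an annotated start on the other strand at -223 bp. Its TY-CFAP20 profile had a maximum of 2.81 at -70 bp and another of 2.94 at -910 bp, and its difference from -1000 to -500 bp was 1.51. ChIP density carries no strand, so the 2 genes cannot be told apart there. SETD5 also had the highest DRIP level of the members (3098, rank 114 of 3000). PRMT2 had the lowest (81.9, rank 2991). Its listed TSS lies 507 bp upstream of the MANE start, and centring there gave 0.387.

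SIRT1, the NAD-dependent deacetylase gene and the sole deacetylase measured, had the largest difference of the set. TY-CFAP20 stood at 2.83 and WT at 1.09 (1.73, rank 11 of 3000; chromosome 10, 67884669). The profile in the plot of single start sites is a broad mound with its maximum of 3.30 at 120 bp. The SIRT1 flanks were also high, at 1.29 in TY-CFAP20 and 0.918 in WT, against means of 0.775 and 0.678 over all TSSs. The copy number of chromosome 10 was not measured here, and the part of flanks and copy number in the result was not tested. By ratio SIRT1 (2.59) ranked 228. ASXL1, whose product activates a histone H2A deubiquitinase, stood at 1.97 and 0.827 (1.14). Its TY-CFAP20 density was highest at -310 bp (3.25), just upstream of the window printed above, and 1.24 at the TSS itself. DNMT3B lies 404 kb from ASXL1 on chromosome 20.

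**Figure D3:**
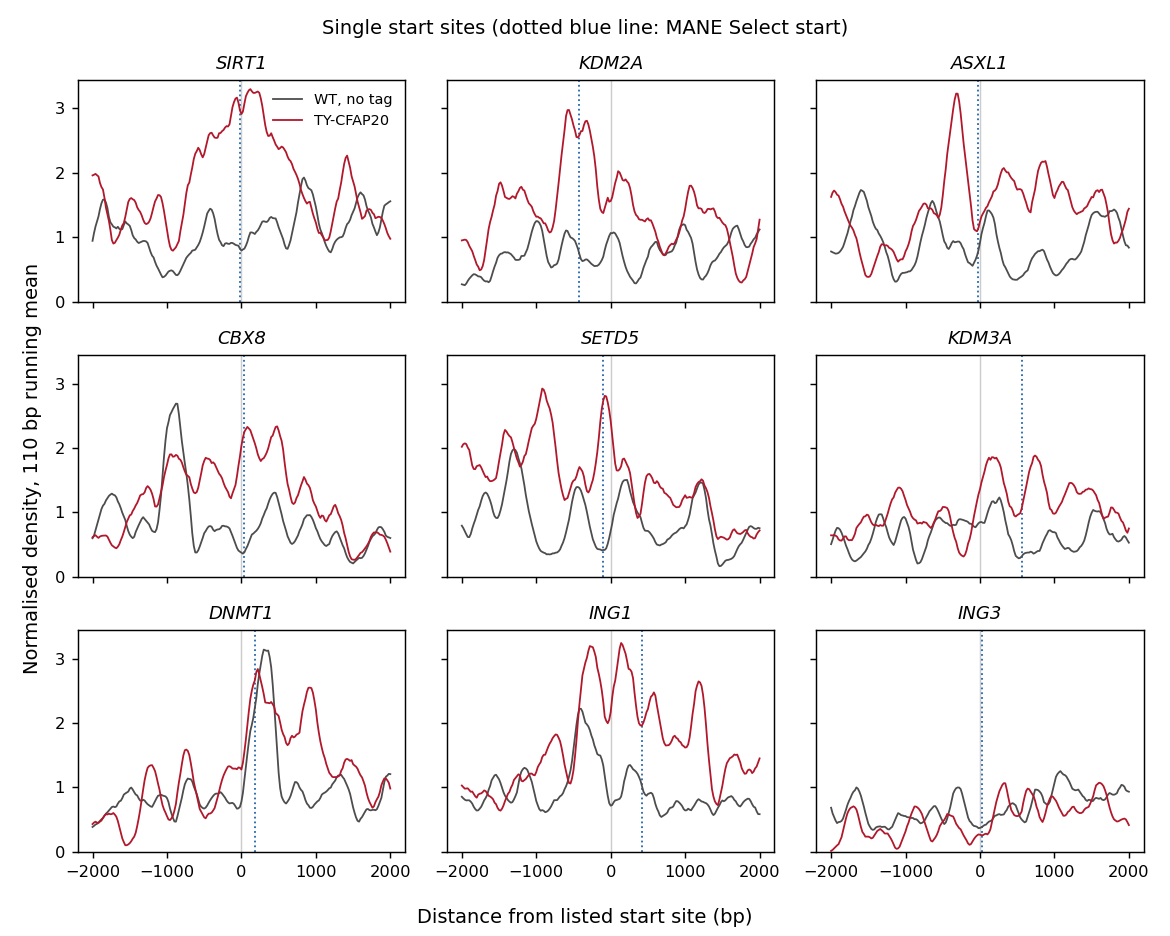
Normalised density (running mean over 110 bp, y axis) against distance from the listed start site in bp for 9 members, with TY-CFAP20 in red and WT in dark grey; the grey vertical line is the listed start and the dotted blue line the MANE Select start where it lies within the plot. At SIRT1 the red curve forms 1 mound up to 3.30, at CBX8 red is high at the start and WT upstream of it, at DNMT1 both curves peak near the MANE start, and at ING3 the curves cross repeatedly.

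Readers of histone marks were the largest group, with 11 members. Of these, 10 were higher in TY-CFAP20, a share near the 91.2% of all TSSs. With the pseudocount 6 were at least 1.5-fold higher, against 34.9% of all TSSs, and the median difference was 0.828. The CBX genes encode chromodomain subunits of the Polycomb repressive complex PRC1, which binds methylated histone tails laid down by PRC2. CBX8 stood at 1.85 with TY-CFAP20 against 0.774 in WT (1.08), CBX6 at 1.63 and 0.806 (0.828) and CBX2 at 1.12 and 0.667 (0.451). CBX2 and CBX8 lie 18.98 kb apart on chromosome 17 and share a regional background. Their running flank ratios, which divide TY-CFAP20 by WT after summing the flanks of 11 adjacent TSSs, were both 1.29, while their differences were 0.451 and 1.08.

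At the CBX8 TSS itself the density was 2.04 with TY-CFAP20 against 0.375 in WT. WT was high further upstream of CBX8, at 2.71 around -870 bp. CBX8, CBX2, CBX6 and ING1 were among the shortest members, at 4.99 to 10.9 kb, and CBX6 was the most transcribed, with a BrU-seq level of 31.1 (rank 146).

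The PHF genes encode PHD finger proteins. PHF19, a PRC2 accessory subunit, stood at 1.99 with TY-CFAP20 against 0.945 in WT (1.04). PHF3, whose product binds RNA polymerase II, stood at 1.495 and 0.632 (0.863), and PHF2, a demethylase-family gene, at 1.30 and 0.691 (0.610). PHF2 and PHF19 are listed 177 and 140 bp upstream of their MANE starts. Centring there lowered PHF2 to 0.390, its maximum lying at -440 bp, and raised PHF19 to 1.24, its maximum lying at 370 bp.

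The ING genes, which encode PHD finger subunits of acetyltransferase and deacetylase complexes, spread over nearly the whole range. ING1 stood at 2.55 with TY-CFAP20 against 1.35 in WT (1.20), high in both (ranks 33 and 43), and its TSS lies inside the transcribed region of CARS2. ING4 stood at 1.62 and 0.884 (0.734). A long non-coding RNA gene has an annotated start on the other strand at -112 bp of ING4, so the 2 genes cannot be told apart there. ING3 stood at 0.496 and 0.610, a difference of -0.114 (rank 2871). The low value at ING3 (chromosome 7, 120950749) came with low flanks, 0.321 in TY-CFAP20 against 0.815 in WT.

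With the pseudocount neither DNA methyltransferase gene reached 1.5-fold, and without it DNMT3B was at 1.66 times WT and DNMT1 at 1.08. DNMT3B, the de novo enzyme, stood at 1.84 with TY-CFAP20 against 1.11 in WT (0.731). DNMT1, the maintenance enzyme, stood at 1.65 and 1.52 (0.125). The WT density of DNMT1 was the highest of the members and ranked 15 of 3000. The untagged cells had a sharp summit of 3.14 at 300 bp, near the TY-CFAP20 summit of 2.85 at 210 bp and the MANE start at 182 bp. A second TY-CFAP20 rise lay further into the gene, where the difference reached 1.88 at 930 bp and averaged 1.20 from 500 to 1000 bp. Of the remodeller group, SMARCB1, a core subunit of the SWI/SNF (BAF) complex, stood at 1.41 and 0.747 (0.660), and ARID5A at 1.49 and 0.808 (0.680). ARID5A has the DNA-binding domain of that family but is not known as a BAF subunit. No KAT, KMT, HDAC, CHD, BAZ, EZH, SUZ, TET or INO80 gene was among the 23.

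TY-CFAP20 background differed between regions of the genome, so the TY-CFAP20 densities were also divided by the running flank ratio (local scaling). After that the median difference was 0.607 at the members and 0.388 at the others, and 20 of 23 members were above WT (background 87.6%). ING3 and PRMT2 lay in stretches where this ratio was below 0.75 of its median of 1.17, at 0.565 and 0.847, as did 223 of all TSSs. They moved up to 0.268 and 0.410. DNMT1 and KDM3A moved below WT, to -0.177 and -0.0107. SIRT1 stayed the highest at 1.19, and KDM2A was at 0.951, ASXL1 at 0.906 and ING1 at 0.872.

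**Figure D4:**
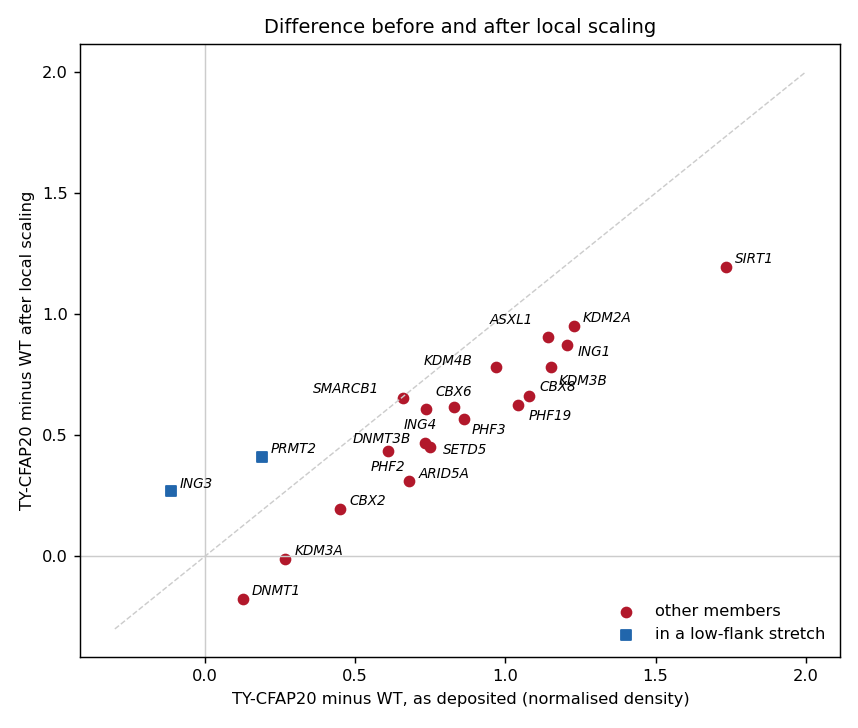
TY-CFAP20 minus WT within 500 bp as deposited (x axis) and after local scaling (y axis) for 21 of the 23 members, each point 1 start site; the dashed line marks equal values. The blue squares, ING3 and PRMT2, lie above the line, and DNMT1 and KDM3A lie below 0 on the y axis.

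The other readouts of the tables were compared next. BrU-seq measures nascent RNA and DRIP RNA-DNA hybrids (R-loops), both in WT, in units that no source used here gives. The median BrU-seq level was 3.17 at the members and 2.54 at the others, from 1.01 at DNMT3B to 31.1 at CBX6. The lowest levels after DNMT3B were at PHF2 (1.02) and KDM4B (1.12), and the highest after CBX6 at PHF19 (11.8). In 5 classes of 600 TSSs by BrU-seq level, 3, 4, 6, 4 and 6 members fell from the lowest to the highest class. Of the 23 members, 17 were above the median difference of their own class, also after local scaling. Each class median is taken over all 600 TSSs of the class, so by construction as many lie above it as below. The same holds for the DRIP, length and CpG classes below.

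The median DRIP level was 1014 at the members and 526 at the others. The highest of 5 DRIP classes held 11 members (47.8%), against 19.8% of the other TSSs. Apart from SETD5 these included CBX6 (2803), ING1 (2469) and KDM3B (1805). SIRT1, with the largest TY-CFAP20 difference, had a DRIP level of 479, below the median of the others. Of the 23 members, 16 were above the median difference of their DRIP class. Across the members, which share the libraries, Spearman's rho with the difference was -0.0188 for BrU-seq and 0.214 for DRIP, against 0.168 and 0.130 across all TSSs.

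**Figure D5:**
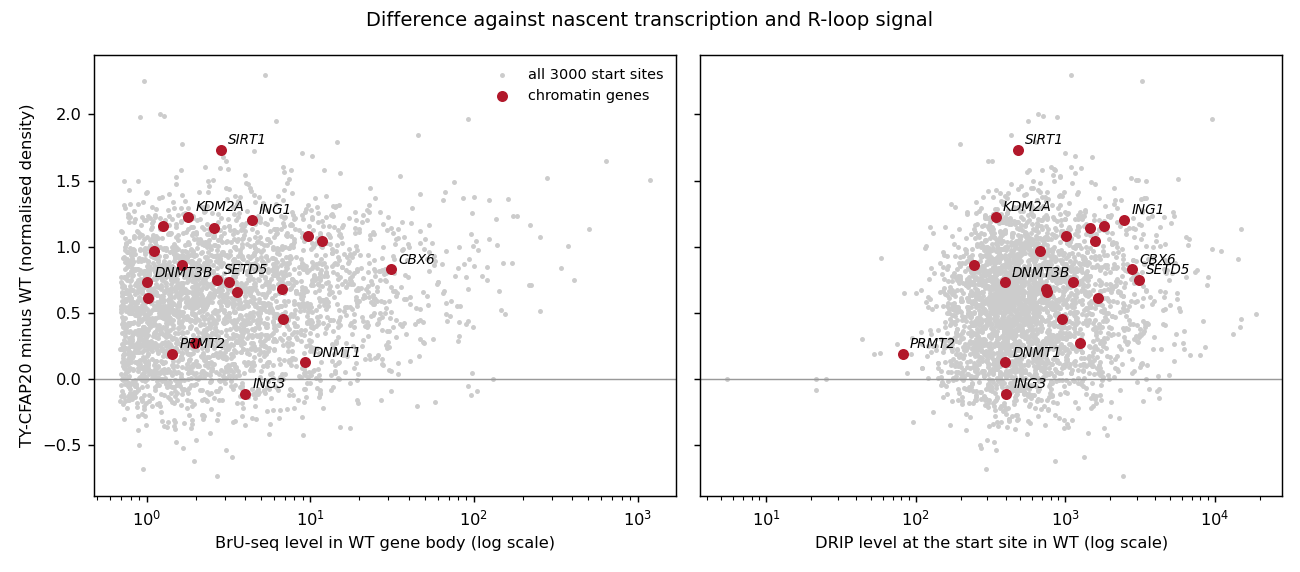
TY-CFAP20 minus WT within 500 bp (y axis) against the BrU-seq level in WT gene bodies (left) and the DRIP level at the start site in WT (right), both on log axes; grey points are all 3000 start sites and red points 21 of the 23 members. The red points reach a BrU-seq level of 31.1. On the DRIP axis they range from 81.9 to 3098, and the median of the 23 is 1014, against 526 at the other start sites.

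The members were also longer and richer in CpG than the others. Median gene length was 44.9 kb against 18.2 kb, and 12 of 23 members were among the 600 longest genes. The median GC content within 500 bp was 67.6% against 60.4% and the median CpG ratio (observed over expected) 0.843 against 0.750. GC skew in the 500 bp after the start was 0.0377 against 0.0557. Both CpG ratio (rho 0.461) and gene length (rho 0.220) went with the difference across all TSSs, and with rho 0.280 and 0.0119 across the members. Set against TSSs of the same length class, 15 of 23 members were above the class median, or 13 after local scaling, and against the same CpG class 14 in both. The part of length and CpG content in the higher median was not tested beyond these counts.

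Distances to replication origins mapped by OK-seq were set beside those of all TSSs. DNMT3B was the 1 member within 10 kb of a centre, at 8.38 kb upstream (4.35%, against 6.57% of all TSSs). SIRT1 followed at 15.2 kb upstream. Within 50 kb there were 3 members, or 13.0%, against 19.4% of all TSSs. With counts this small, neither share is read as a difference from all TSSs.

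Chromatin genes outside these name families were taken from a second list of 121 symbols, of which 18 were measured. The list was drawn up with earlier results of these data known, so it is not an independent set. TY-CFAP20 was higher at 17, or 94.4%, which is near the 91.2% of all TSSs. With the pseudocount 12 were at least 1.5-fold higher, against 34.9% of all TSSs. Their median difference was 0.923, and 0.666 after local scaling. The highest was PCGF5 (2.67 in TY-CFAP20 and 1.18 in WT), a PRC1 subunit gene on chromosome 10, as SIRT1 is. Next came SS18 (1.93 and 0.637), a BAF subunit gene, and RCOR3 (2.24 and 1.00), a corepressor gene. The lowest were BCL7B (0.604 and 0.827), another BAF subunit gene, in a stretch of chromosome 7 with low flanks, then MSL1 (1.26 and 0.948) and JADE2 (1.40 and 0.904), both of acetyltransferase complexes. None of the 18 was in the highest BrU-seq class, which held 6 of the 23 members (26.1%) and by construction 20% of all TSSs. The median gene length of the 18 was 55.2 kb.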

How the data were processed

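Anti-TY ChIP-seq had been done in 3 WT and 3 TY-CFAP20 samples of RPE1 cells, with crosslinking by DSG and formaldehyde and Drosophila spike-in chromatin, per the labels' protocols. WT reactions held more chromatin and more spike-in chromatin. Per the submitters' processing notes, the genome builds were hg38 and BDGP6 and the tools R 4.0.5, STAR 2.7.7a, HOMER 4.8.2, SAMtools 1.11, BWA 0.7.17 and Trim Galore 0.6.5. Not given in the sources used here are the tool behind each value and the spike-in factor.

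The authors deposited a read density signal per group, spike-in normalised and averaged over replicates per the file names, at 1001 positions per TSS, every 10 bp out to 5 kb on both sides. These densities, scored per position by the authors, have no fixed range and are handled as a score. BrU-seq and DRIP scores and gene length are also the authors' deposited values, per the file headers. A deposited column read as a ratio of CFAP20 over WT is used in the closing section alone. Its header names neither the assay nor whether CFAP20 is knocked out or tagged. Columns of per-sample values left without a sample numbered 0. The total reads per library are not known from these averages.

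For each TSS the densities within 500 bp were averaged. Differences are TY-CFAP20 minus WT, without a test. Folds with the pseudocount understate changes at low density. TSS positions are hg38, 1-based, and annotation is GENCODE 44. Members and lists were chosen with earlier results of these data known. Of the 23 members, 2 enter the counts and medians but are not reported singly here. The other 21 are named, with fuller values for the 8 largest and 5 smallest differences, the extremes of each role group and of BrU-seq. On simulated densities the measures were tested for known ratios and a lowered block. Alternatives covered the window, scaling, pseudocount, threshold and the TSSs used. The software was pysam 0.24.0, matplotlib 3.10.9, scipy 1.17.1, pandas 2.3.3 and numpy 2.4.6 under Python 3.11.15.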

Additional observations from a re-analysis of the deposited data

How the results depend on the processing

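No paired analysis was possible because each deposited density is already an average over a group's replicates, although replicate numbers recur in the 2 groups. For that reason no result is given with a replicate left out, and the densities and differences carry no replicate error. Dropping antisense or clone-named members, or members acting outside the nucleus, would have removed none and was not run. The window at the MANE start was chosen after seeing the data. Depth per library is unknown, so the counting error at single genes was not computed.

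The ratio of 1.88 became 2.04 for 250 bp on each side, 1.71 for 1000 bp, 1.75 from 0 to 1000 bp, 1.65 scaled to the flanks, 1.62 with local scaling, 1.96 without low stretches, 1.84 without chromosome 10 and 1.97 at the MANE start. In the same order the median difference of 0.749 was 0.994, 0.623, 0.594, 0.535, 0.607, 0.828, 0.742 and 0.764, and 0.781 for the 18 members with an annotated start within 100 bp. The members' median minus that of the others, 0.180, was 0.310, 0.208, 0.136, 0.138, 0.219, 0.229, 0.185 and 0.168, and 0.203 for annotated starts. These stayed above 1 or 0 in the settings named. The count of 11 members at 1.5-fold was 6 with local scaling (17.5% of all TSSs), 18 with 0.25 times the pseudocount (57.7%), 18 without one (65.6%), 0 with 4 times it (0.2%), 1 at 2-fold (1.77%) and 0 at 3-fold, where all TSSs gave 0 too. A larger pseudocount or threshold lowers it by construction. Other changes of sign were at KDM3A (-0.0107 with local scaling), DNMT1 (-0.0807 scaled to the flanks and -0.177 locally) and ING3 (0.0286 from 0 to 1000 bp and 0.268 with local scaling). The cause was not tested.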

Other observations

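A further column of the authors' deposited table is headed DiffCFAP20overWTmock. The header names neither the assay nor whether CFAP20 stands for the knockout or for TY-CFAP20, so its values may not be comparable with the ChIP densities. The column is read here as a ratio. Its median in the authors' deposited table was 1.02 over the members and 1.14 over the other TSSs. The 25th percentile over the other TSSs was 0.850 in the authors' deposited table, so values below 1 were common there. The members spread from 0.447 at ING3 to 2.33 at CBX6 in the authors' deposited table. CBX8 was at 1.77 and CBX2 at 1.78 in the authors' deposited table, while the 4 KDM genes were below 1, with KDM3A at 0.725, KDM4B at 0.759, KDM3B at 0.801 and KDM2A at 0.908. Members that passed 1.5-fold in ChIP density with the pseudocount thus lay on both sides of 1 in that column of the authors' deposited table. CBX6, CBX8, ING1 (1.66) and PHF19 (1.98) were above 1 in the authors' deposited table. KDM2A, KDM3B, KDM4B, ASXL1 (0.969) and PHF3 (0.849) were below 1 in the authors' deposited table. SIRT1, with the largest difference in density, was at 0.715 in the authors' deposited table. The pattern was noticed after the values were seen and was not tested.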
